A study of Mus musculus with 18 samples.

Results

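Krüppel-like factors (KLFs) were followed in murine brown preadipocytes treated with FGF6. The 10 genes described are Klf2, Klf3, Klf4, Klf5, Klf6, Klf7, Klf9, Klf10, Klf13, and Klf15. They were chosen by name, as the rows of the count table whose Ensembl identifiers carry these symbols in GENCODE on GRCm38, and they are 10 of 48023 genes in the table. The names were chosen with earlier results of these data known, so counts of members against all genes may partly reflect that choice. All 10 passed the filter on low counts that left 15071 genes for testing. The cells were an immortalized line of brown preadipocytes, made with SV40 T antigen and kept undifferentiated in growth medium with fetal bovine serum. Vehicle or recombinant FGF6 (200 ng/ml) was added to this medium, cells were collected after 4, 8, or 24 h, and 3 RNA-seq libraries stood in each of the 6 groups, which gave 18 in all. Each time point had its own vehicle group. The labels do not say whether the libraries of a group came from separate cultures, so p-values measure the spread between these libraries, which may be technical.

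KLFs are zinc finger transcription factors that bind GC-rich and CACCC sequences through a shared C-terminal domain and differ in their N-terminal domains, which recruit coactivators or corepressors. In fat precursors, Klf4, Klf5, Klf6, Klf9, and Klf15 are known to favor adipogenesis at different stages, whereas Klf2, Klf3, and Klf7 are known to restrain it. Klf10 and Klf13 belong to the group that binds the corepressor Sin3a, as does Klf9.

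FGF6 raised Klf5 and lowered Klf15 and Klf3 at all 3 time points. Klf5 was 5.65-fold higher than in vehicle-treated cells at 4 h and 3.77-fold higher at 24 h, whereas Klf15 was 2.06-fold lower at 4 h and 5.75-fold lower at 24 h. Klf3 was close to 2-fold lower throughout. Klf10 and Klf13 were also higher at all 3 time points, by smaller amounts. Klf6 and Klf2 were higher at 4 and 8 h and did not pass the test at 24 h.

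Counts of members were read against all genes tested. A gene was called higher or lower at an adjusted p under 0.05 in edgeR's quasi-likelihood test, with the Benjamini-Hochberg method over all 15071 genes. At 4 h, 6 of 10 members were higher and 2 were lower, where 28.6% of all genes were higher and 34.2% were lower. At 8 h, 6 were higher and 3 were lower, against 32.4% and 38.4% of all genes. At 24 h, 3 were higher and 4 were lower, against 35.9% and 37.9%. The median log2 fold change of the members was 0.23, 0.28, and -0.10 at 4, 8, and 24 h, and that of all genes tested was -0.05, -0.05, and -0.02. Leaving out 1 library changed the 24 h count of lower members to 2, either without vehicle replicate 3 or without FGF6 replicate 1 at 24 h, since Klf4 and Klf7 then missed the threshold.

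With a change of at least 2-fold required as well, Klf5 was the 1 member higher at each time point, where 4.96%, 7.39%, and 7.44% of all genes were higher at 4, 8, and 24 h. Klf15 was the 1 lower member at 4 h, and Klf15 and Klf3 were the 2 lower members at 8 and 24 h, where 6.38%, 10.9%, and 15.3% of all genes were lower. Klf15 at 4 h was near that limit, and without vehicle replicate 3 or without FGF6 replicate 2 at 4 h the number of members changed at least 2-fold dropped from 2 to 1. Under the 9 processing alternatives, this number at 4 h was 2 to 3. Klf3 at 24 h was near the limit too, at -1.03 to -0.964 over the 18 fits that each left out 1 library. The number of members changed at least 2-fold at 24 h was 2 to 3 in these fits. The 3 FGF6 libraries did not overlap the 3 vehicle libraries for 9, 9, and 8 of the 10 members at 4, 8, and 24 h. Among all genes, 66.2%, 73.8%, and 74.8% were separated in this way, so separation of the libraries was common in this experiment.

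**Figure D1:**
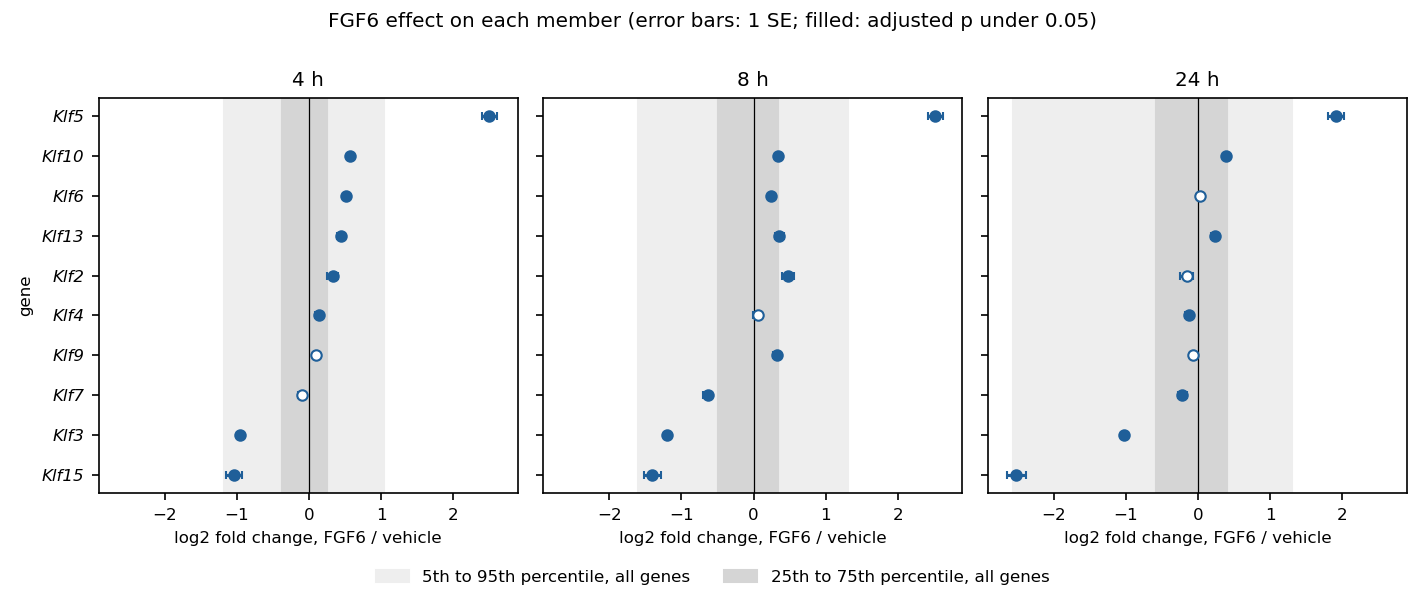
Log2 fold change of FGF6 over vehicle for the 10 members at 4, 8, and 24 h, with bars of 1 SE and filled symbols for an adjusted p under 0.05 (edgeR). Grey bands span the 5th to 95th and the 25th to 75th percentiles of all 15071 genes tested. Klf5 lies above the wider band at all 3 time points, and Klf15 moves from -1.04 at 4 h to -2.52 at 24 h.

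Klf5 encodes an activator that is induced early in adipogenesis by C/EBPβ and C/EBPδ and that binds the Pparg promoter. The gene (ENSMUSG00000005148) lies at chr14:99298691-99315036 on the plus strand of GRCm38. Expression is given as CPM, the counts of a gene relative to the total of its library, with library sizes scaled by TMM factors. At 4 h, Klf5 was at 3.57, 3.28, and 2.80 CPM in the vehicle libraries and at 19.1, 17.7, and 17.9 CPM in the FGF6 libraries. At 8 h, the vehicle libraries were at 3.16, 3.15, and 2.40 CPM and the FGF6 libraries at 18.8, 15.3, and 15.9 CPM. At 24 h, they were at 2.56, 3.05, and 2.98 CPM and at 10.7, 11.1, and 10.7 CPM. Every FGF6 library was well above every vehicle library at each time point. On the log2 scale Klf5 changed by 2.50 ± 0.10 (SE), 2.52 ± 0.11, and 1.91 ± 0.11 at the 3 times, with adjusted p-values of 1.12e-16, 8.67e-17, and 7.54e-14. Ranked from the highest log2 fold change, Klf5 stood at position 137 of the 15071 genes at 4 h, 254 at 8 h, and 424 at 24 h. The fewest Klf5 counts in any library were 70, in a vehicle library at 8 h.

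Klf15 encodes a factor that is induced late in adipogenesis, is a target of the glucocorticoid receptor, and activates the gene of the glucose transporter Slc2a4. The gene (ENSMUSG00000030087) lies at chr6:90462576-90475238 on the plus strand. At 4 h, the vehicle libraries had 6.42, 5.75, and 6.98 CPM and the FGF6 libraries had 3.07, 3.00, and 3.25 CPM. At 8 h, the vehicle libraries had 7.17, 7.12, and 7.46 CPM and the FGF6 libraries had 2.90, 2.35, and 3.00 CPM. At 24 h, the values were 7.74, 6.85, and 6.98 CPM with vehicle and 1.24, 1.32, and 1.17 CPM with FGF6. The groups did not overlap at any time point, and the FGF6 libraries at 24 h were below all other libraries. On the log2 scale the difference was -1.04 ± 0.11, -1.40 ± 0.12, and -2.52 ± 0.13 in order of time, with adjusted p-values of 1.77e-08, 5.37e-11, and 6.71e-15. These values rest on few reads at 24 h, where the FGF6 library with the fewest had 32 counts of Klf15.

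Klf3 encodes a repressor that recruits the corepressor CtBP and is known to block adipogenesis. The gene (ENSMUSG00000029178) lies at chr5:64803388-64832901 on the plus strand. At 4 h, Klf3 was at 156, 171, and 162 CPM with vehicle and at 80.3, 87.5, and 84.2 CPM with FGF6. At 8 h, it was at 123, 128, and 138 CPM with vehicle and at 57.6, 56.5, and 55.1 CPM with FGF6. At 24 h, the values were 124, 125, and 130 CPM with vehicle and 62.0, 61.1, and 63.5 CPM with FGF6. All 9 FGF6 libraries lay below all 9 vehicle libraries. Differences were -0.95 ± 0.04, -1.20 ± 0.04, and -1.02 ± 0.04 (log2, SE) in order of time, with adjusted p-values of 2.88e-16, 3.16e-18, and 4.67e-17. A gene on the opposite strand, Gm20033, overlaps 404 of the 11243 exonic bases of Klf3 and had between 5 and 62 counts a library, against at least 1341 counts of Klf3. The strand setting of the counting was not given in the sources used here.

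**Figure D2:**
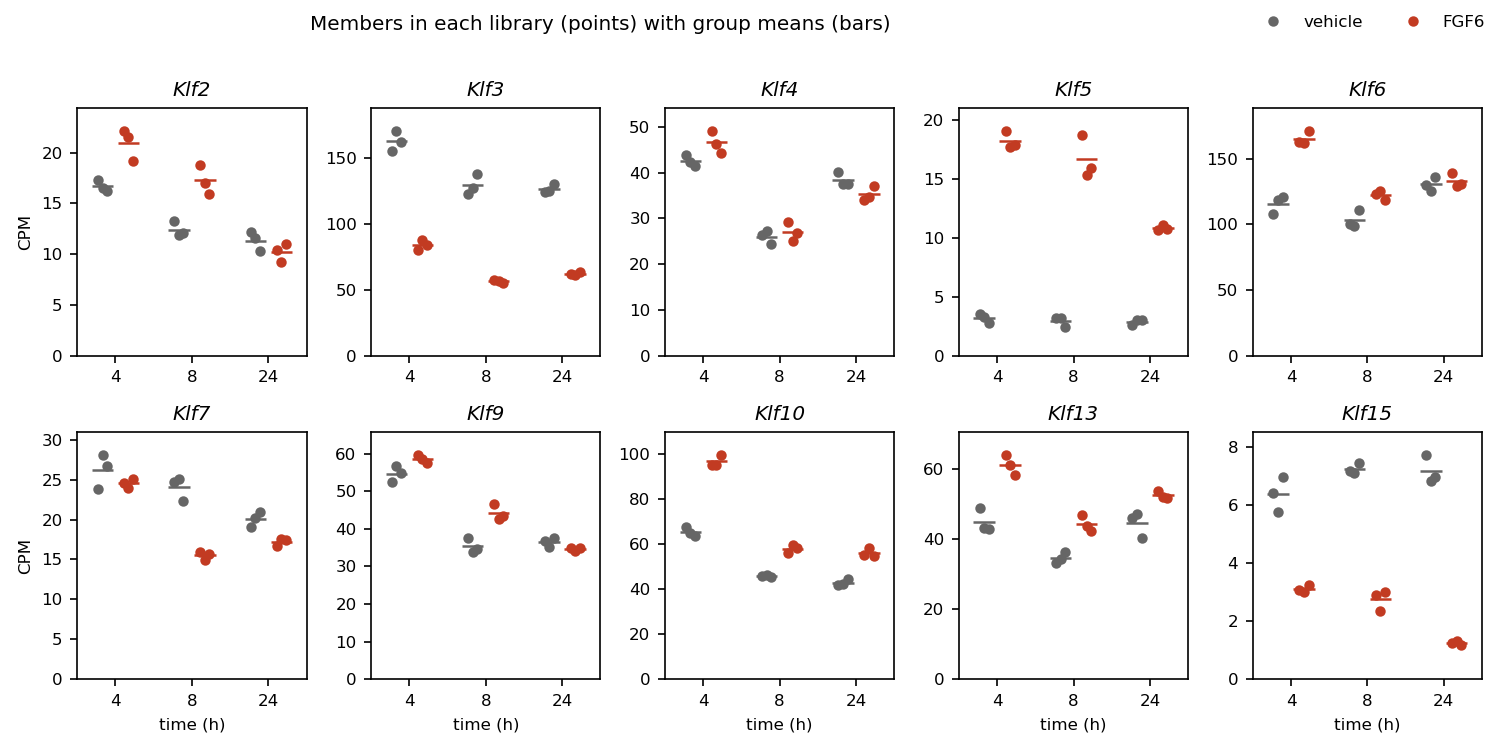
CPM of the 10 members in each of the 18 libraries by time in hours, with vehicle in grey, FGF6 in red, points for libraries, and bars for group means of 3 libraries, on linear axes from 0. Klf5, Klf3, and Klf15 are separated at all 3 time points, whereas Klf2 and Klf6 are separated at 4 and 8 h and overlap at 24 h.

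Upstream sequences are shown for Klf15 and Klf3, the members that fell most, and for Klf2, a known target of the ERK5-MEF2 pathway. They were taken from RefSeq windows on GRCm38.p6, which held 8 of the 10 members, and motifs were searched on both strands over 250 bases before the RefSeq start. Capitals mark the GC box GGGCGG and the CACCC element, which read GGGTG on the other strand, and in Klf2 also a match to the MEF2 motif. The GC box and the CACCC element can share bases, as they do at the end of the run of GC boxes in Klf3. All pieces are on the plus strand, written 5′ to 3′, and come from chr6:90462326-90462575 (Klf15), chr5:64803271-64803387 (Klf3), and chr8:72318812-72319032 (Klf2).

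Klf15: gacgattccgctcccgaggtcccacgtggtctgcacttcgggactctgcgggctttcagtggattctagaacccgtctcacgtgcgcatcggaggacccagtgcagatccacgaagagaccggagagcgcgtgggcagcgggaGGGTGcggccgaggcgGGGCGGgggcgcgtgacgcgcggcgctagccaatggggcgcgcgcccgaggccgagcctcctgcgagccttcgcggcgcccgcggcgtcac

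Klf3: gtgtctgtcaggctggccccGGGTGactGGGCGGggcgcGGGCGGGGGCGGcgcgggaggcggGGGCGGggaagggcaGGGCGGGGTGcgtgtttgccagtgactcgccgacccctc

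Klf2: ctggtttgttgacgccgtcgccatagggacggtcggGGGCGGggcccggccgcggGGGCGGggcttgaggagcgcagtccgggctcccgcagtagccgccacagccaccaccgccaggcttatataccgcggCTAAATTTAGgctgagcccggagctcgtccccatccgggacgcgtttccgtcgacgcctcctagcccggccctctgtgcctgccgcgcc

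A GC box was found in 7 of the 8 windows of members and in 32.7% of the 32851 windows of all genes. The CACCC element was found in 6 of 8 and in 52.0% of all windows. The 250 bases searched were 59.2% to 78.4% G or C in the 8 members. The shares over all windows were not matched to this content. Klf3 had the most copies among the members, with 6 GC boxes and 5 CACCC elements in its window, of which 5 and 2 lie in the piece printed above. Klf15 had 1 copy of each. The MEF2 motif was found in Klf2 alone among the 8 members, as CTAAATTTAG starting 118 bases before the start, and in 0.508% of all windows. The CArG box of serum response factor, present in 1.47% of all windows, and the full cyclic AMP response element (TGACG followed at once by TCA), present in 1.55%, were found in 0 of the 8 members. These matches describe letters in a window, and binding was not measured here.

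Among the other members known to favor adipogenesis, Klf6 was higher than vehicle at 4 and 8 h. Klf9 was called higher than vehicle at 8 h, and Klf4 differed little. Klf6, a zinc finger factor that represses the preadipocyte gene Dlk1, lies at chr13:5861482-5870394 (plus strand). It was at 108, 118, and 121 CPM with vehicle and at 163, 162, and 171 CPM with FGF6 at 4 h. At 8 h it was at 100, 98.4, and 111 CPM with vehicle and at 123, 125, and 118 CPM with FGF6. The groups were separate at both times, with a log2 fold change of 0.51 ± 0.05 (adjusted p = 5.08e-10) and 0.25 ± 0.05 (adjusted p = 4.95e-05). At 24 h, vehicle libraries at 130, 125, and 136 CPM overlapped FGF6 libraries at 139, 130, and 131 CPM, and the log2 difference of 0.03 had a 95% interval from -0.06 to 0.12. Dlk1 was listed at 0 counts in all 18 libraries.

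Klf9, a glucocorticoid and thyroid hormone responsive factor, lies at chr19:23141226-23168134 (plus strand). At 8 h, it was at 37.7, 33.7, and 34.7 CPM with vehicle and at 46.6, 42.6, and 43.3 CPM with FGF6, without overlap. Its log2 fold change at 8 h was 0.32 ± 0.05 (adjusted p = 2.05e-06). The mean of Klf9 was lower at 8 h than at 4 h in both treatments, at 44.2 CPM with FGF6 and 35.4 CPM with vehicle at 8 h. At 4 h, the vehicle mean was 54.6 ± 2.1 CPM (SD, n = 3) and the FGF6 mean 58.6 ± 1.2 CPM, a log2 difference of 0.10 that did not pass the test (adjusted p = 0.0604, edgeR). The call depended on the method. Klf9 was called higher at 4 h by limma with voom (0.10, adjusted p = 0.0434), by DESeq2 (0.12, adjusted p = 0.0267), by edgeR with at least 10 counts in every library (0.13, adjusted p = 0.0158), and by edgeR on the 4 h libraries alone (0.14, adjusted p = 0.0093). It was not called with upper-quartile factors (0.04), without a filter on low counts (0.11), or with the replicate number as a block (0.10), and it was -0.000421 with library sizes alone. In the main edgeR model it passed in 10 of 18 fits that each left out 1 library. These left out vehicle replicate 2 or FGF6 replicate 2 or 3 at 4 h, vehicle replicate 1 or FGF6 replicate 3 at 8 h, or, at 24 h, any vehicle replicate or FGF6 replicate 1 or 3, and over all 18 fits the value ran from 0.07 to 0.14. At 24 h, it averaged 36.4 ± 1.2 and 34.7 ± 0.47 CPM, and the log2 difference was -0.07 with an adjusted p of 0.22.

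Klf4, which acts with Egr2 on the Cebpb gene at the onset of adipogenesis, lies at chr4:55527143-55532466 (minus strand). It was at 43.8, 42.4, and 41.4 CPM with vehicle and at 49.1, 46.4, and 44.4 CPM with FGF6 at 4 h. At 24 h, it was at 40.2, 37.6, and 37.6 CPM with vehicle and at 34.0, 34.6, and 37.2 CPM with FGF6. It was thus slightly higher with FGF6 at 4 h (log2 fold change 0.13 ± 0.06, adjusted p = 0.037) and slightly lower at 24 h (-0.13 ± 0.06, adjusted p = 0.0476). Neither call held under all settings. The 4 h call was lost without vehicle replicate 2, vehicle replicate 3, or FGF6 replicate 1 at 4 h, with log2 fold changes of 0.13, 0.12, and 0.12. In edgeR it was also lost with upper-quartile factors (0.08, adjusted p = 0.239) and with library sizes alone (0.03, adjusted p = 0.641). The 24 h call was lost without any 1 of 11 libraries, which were vehicle replicate 2 and all 3 FGF6 libraries at 4 h, FGF6 replicate 3 at 8 h, and all 6 libraries at 24 h, and over the 18 such fits the value ran from -0.13 to -0.05. DESeq2 also did not call Klf4 at 24 h (-0.11, adjusted p = 0.107). At 8 h, the group means were 26.0 ± 1.5 CPM with vehicle and 27.0 ± 2.1 CPM with FGF6, and the groups overlapped.

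Klf2 and Klf7, which like Klf3 restrain adipogenesis, differed in direction. Klf2, also an endothelial factor induced by shear stress, lies at chr8:72319033-72321656 (plus strand). At 4 h, it was at 17.4, 16.5, and 16.2 CPM with vehicle and at 22.1, 21.6, and 19.2 CPM with FGF6. At 8 h, the values were 13.3, 11.9, and 12.1 CPM with vehicle and 18.8, 17.0, and 16.0 CPM with FGF6. The groups were apart at these times, with a log2 fold change of 0.33 ± 0.08 at 4 h (adjusted p = 0.00052) and 0.48 ± 0.08 at 8 h (adjusted p = 8.81e-06). At 24 h, Klf2 was at 12.2, 11.6, and 10.3 CPM with vehicle and at 10.4, 9.18, and 11.0 CPM with FGF6, and the difference of -0.16 ± 0.09 did not pass the test (adjusted p = 0.105).

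Klf7, known for its role in neurons and as an inhibitor of adipocyte differentiation, lies at chr1:64029447-64122282 (minus strand). At 8 h, it was at 24.8, 25.1, and 22.3 CPM with vehicle and at 15.9, 14.9, and 15.7 CPM with FGF6, with a gap between the groups. The log2 difference at 8 h was -0.64 ± 0.07 (adjusted p = 2.94e-09). At 24 h, it was at 19.1, 20.2, and 20.98 CPM with vehicle and at 16.7, 17.6, and 17.4 CPM with FGF6, which is -0.22 ± 0.07 in log2 (adjusted p = 0.00439). Without vehicle replicate 3 or FGF6 replicate 1 at 24 h, the value was -0.15 and did not pass. At 4 h, vehicle libraries from 23.9 to 28.2 CPM overlapped FGF6 libraries from 24.0 to 25.1 CPM, and the difference of -0.10 did not pass (adjusted p = 0.166), whereas it passed at -0.16 without vehicle replicate 1 at 4 h. It also passed with library sizes alone (-0.20, adjusted p = 0.00452) and with upper-quartile factors (-0.16, adjusted p = 0.0269), so the call at 4 h depended on the scaling. Of the 8131 exonic bases of Klf7, 3200 are overlapped by genes on the opposite strand, which had 0 or 1 count in each library. Since the strand setting of the counting is not known, reads of Klf7 in this overlap may have gone uncounted. The low counts of the other genes do not settle this.

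Among the members known to bind Sin3a, Klf10 and Klf13 were higher with FGF6 at all 3 time points. Klf9 was called higher at 8 h alone. Among KLF genes outside the members, Klf16 was higher and Klf11, a relative of Klf10, was lower at all 3 time points. Klf10, an early response gene of TGFβ, lies at chr15:38291463-38300706 (minus strand). It was at 67.4, 64.8, and 63.6 CPM with vehicle and at 95.1, 95.2, and 99.8 CPM with FGF6 at 4 h. At 24 h, it was at 41.8, 42.0, and 44.4 CPM with vehicle and at 54.9, 58.4, and 54.6 CPM with FGF6. The groups were separate at each time point, 8 h included, and the log2 fold change was 0.57 ± 0.04, 0.34 ± 0.04, and 0.39 ± 0.04 at 4, 8, and 24 h, with adjusted p-values of 3.52e-12, 8.03e-08, and 6.94e-09. Klf13, a regulator of chemokine expression in lymphocytes, lies at chr7:63886351-63938915 (minus strand). It was at 48.7, 43.2, and 42.9 CPM with vehicle and at 64.1, 61.0, and 58.3 CPM with FGF6 at 4 h. Its groups were also separate at each time point, with a log2 fold change of 0.44 ± 0.06, 0.36 ± 0.06, and 0.24 ± 0.06 and adjusted p-values of 2.64e-07, 9.92e-06, and 0.000874.

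An interaction term of the same edgeR model tested whether the effect of FGF6 on a member changed between times. These contrasts share libraries with each other, so their counts are not independent. From 4 to 8 h, the effect moved up for 1 member (Klf9) and down for 4 (Klf3, Klf6, Klf7, and Klf10), against 15.5% and 15.1% of all genes. From 8 to 24 h, it moved up for 2 (Klf3 and Klf7) and down for 5 (Klf2, Klf5, Klf6, Klf9, and Klf15), against 22.6% and 22.5%. From 4 to 24 h, it moved up for 0 members and down for 8, all but Klf3 and Klf7, against 28.3% and 25.2%. The 8 genes were not alike in what that meant for their level, since for Klf15 a decrease deepened, for Klf5 an increase shrank, and for Klf2 and Klf6 an increase at 4 h was followed by a difference that did not pass the test.

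The largest of these shifts among the members was that of Klf15, whose log2 fold change at 24 h was well below that at 8 h. The interaction was -1.12 ± 0.19 from 8 to 24 h (adjusted p = 2.07e-05) and -1.48 ± 0.18 from 4 to 24 h (adjusted p = 1.97e-07). For Klf5 it was -0.60 ± 0.17 from 8 to 24 h (adjusted p = 0.00426), and from 4 to 8 h it was 0.02 ± 0.16 (adjusted p = 0.946). For Klf7 the effect dipped at 8 h, with an interaction of -0.54 ± 0.09 from 4 to 8 h and 0.42 ± 0.09 from 8 to 24 h. The count of 8 lower members from 4 to 24 h was 4 with library sizes alone and 5 with upper-quartile factors. It was also 5 without FGF6 replicate 1 or FGF6 replicate 3 at 24 h. The shift of Klf3 from 8 to 24 h (0.17 ± 0.06) did not pass without vehicle replicate 3 at 8 h, FGF6 replicate 3 at 8 h, vehicle replicate 2 at 24 h, or FGF6 replicate 3 at 24 h, with values from 0.125 to 0.164. The shift of Klf9 from 4 to 8 h (0.22 ± 0.07) became 0.18 without FGF6 replicate 1 at 8 h and did not pass.

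The level of most members also changed with time in the vehicle groups. From 4 to 8 h, 7 of 10 members fell in vehicle-treated cells and 0 rose, where 21.7% of all genes fell and 21.2% rose. The 7 were Klf2, Klf3, Klf4, Klf6, Klf9, Klf10, and Klf13, with log2 changes from -0.71 ± 0.06 for Klf4 to -0.17 ± 0.05 for Klf6. Klf4 averaged 42.5 ± 1.2 CPM at 4 h and 26.0 ± 1.5 CPM at 8 h with vehicle, and Klf9 averaged 54.6 ± 2.1 and 35.4 ± 2.0 CPM. From 8 to 24 h, 3 members rose in vehicle-treated cells (Klf4, Klf6, and Klf13) and 2 fell (Klf7 and Klf10), against 25.5% and 23.7% of all genes. The fall of Klf10 (-0.10 ± 0.04) was not called in 7 of the 18 fits that each left out 1 library. These were the fits without any 1 of the 3 vehicle libraries at 8 h, vehicle replicate 1 or 2 at 24 h, vehicle replicate 2 at 4 h, or FGF6 replicate 2 at 4 h, with values from -0.11 to -0.09. It was also not called by DESeq2 (-0.10), and the number of members that fell was then 1. From 4 to 24 h, 1 member rose (Klf6) and 6 fell, against 30.9% and 30.0%. The vehicle levels of Klf5 and Klf15, the members with the largest FGF6 effects, did not pass the test in any of these contrasts.

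Time in the vehicle groups and the FGF6 effect together set the course of each member. The mean of Klf5 with FGF6 went from 18.2 CPM at 4 h to 10.8 CPM at 24 h, while vehicle means stayed between 2.86 and 3.22 CPM. The mean of Klf15 with FGF6 went from 3.11 to 1.25 CPM, while vehicle means lay between 6.38 and 7.25 CPM. For Klf10 both groups were lower at 24 h than at 4 h, from 65.3 to 42.7 CPM with vehicle and from 96.7 to 56.0 CPM with FGF6. For Klf4, the difference between 4 and 8 h within either treatment was larger than any difference between treatments.

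Levels of different members were compared per kilobase of exon, since the genes differ in length. With vehicle at 4 h, Klf6 was the most abundant member at 26.4 ± 1.6 CPM per kb and Klf5 the least at 0.618 ± 0.074, a 42.7-fold range of means. Between them came Klf10 (15.6), Klf3 (14.5), Klf4 (14.0), Klf9 (11.3), Klf2 (9.04), Klf13 (5.97), Klf7 (3.23), and Klf15 (2.29 CPM per kb). Klf3 and Klf4 overlapped in this order and all other neighbors were separate over the 3 libraries. With FGF6 at 4 h, Klf5 at 3.50 ± 0.14 CPM per kb stood above Klf7 and Klf15, and Klf3 at 7.47 ± 0.32 stood below Klf13, from which it was not separate. The level of Klf7 was divided by all 8131 exonic bases, of which 3200 are overlapped by genes on the opposite strand. Since the strand setting of the counting is not known, this level may be too low. The order of Klf5 and Klf7 with FGF6 is therefore uncertain. At 24 h with FGF6, Klf6 (30.3 CPM per kb) and Klf15 (0.446 CPM per kb) were the ends of the order, with a 67.9-fold range. Klf6 led the order of the members in all 6 groups. The last place among the members went to Klf5 in the 3 vehicle groups and to Klf15 in the 3 FGF6 groups. Klf16, a KLF gene outside the members, was above Klf6 with FGF6 at 8 h, at 30.6 against 27.9 CPM per kb, without overlap. With FGF6 at 4 h Klf16 overlapped Klf6, and in the other groups it was lower.

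**Figure D3:**
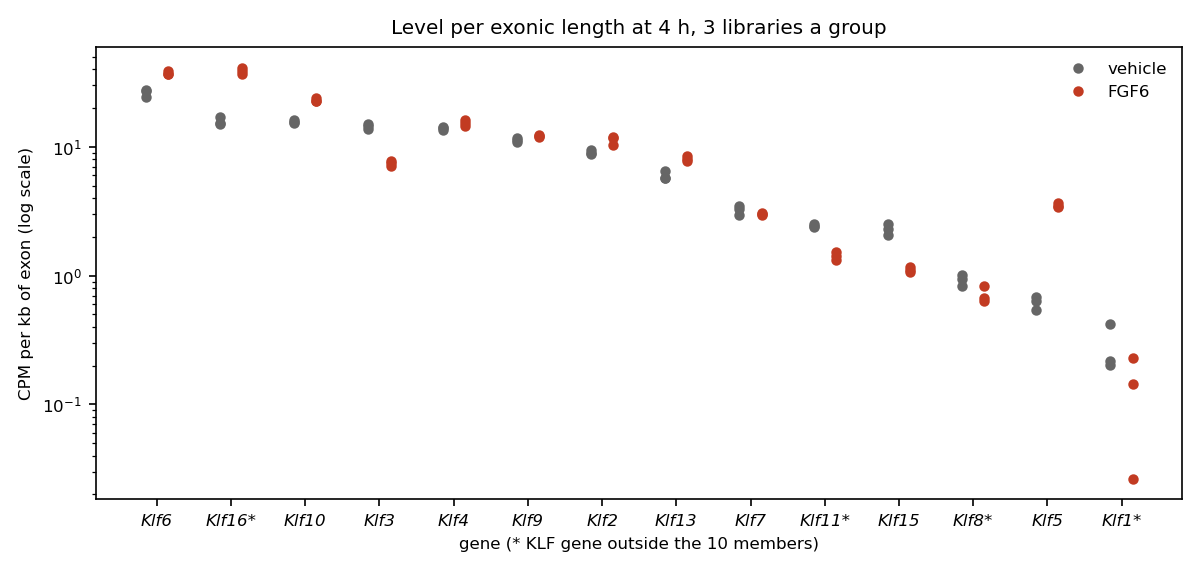
CPM per kb of exon (log axis) of the members and of the 4 other KLF genes that were tested (asterisks) in the 3 vehicle (grey) and 3 FGF6 (red) libraries at 4 h, ordered by the vehicle mean. Klf6 has the highest vehicle level at 26.4 CPM per kb, and Klf5 moves from 0.618 to 3.50 CPM per kb.

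Of the 7 other KLF genes, 4 were tested (Klf1, Klf8, Klf11, and Klf16), and Klf12, Klf14, and Klf17 did not pass the filter on low counts. At 4 h, 1 was higher and 2 were lower, at 8 h 1 was higher and 2 were lower, and at 24 h 2 were higher and 1 was lower. Among all genes, 28.6%, 32.4%, and 35.9% were higher at 4, 8, and 24 h, and 34.2%, 38.4%, and 37.9% were lower. These shares stand beside the counts of all lists and markers below. The median log2 fold change of these 4 KLF genes was -0.58, -0.37, and 0.16 at the 3 time points. Klf16 rose from 42.1 ± 3.0 to 104 ± 6.1 CPM at 4 h, a log2 fold change of 1.31 ± 0.06 (adjusted p = 1.6e-16). It remained higher at 8 h (1.25 ± 0.06) and 24 h (0.77 ± 0.06). Klf11 and Klf8 were named after their values were seen. Klf11, a TGFβ-inducible relative of Klf10, went the other way, from 10.6 ± 0.26 to 6.19 ± 0.46 CPM at 4 h, and its log2 fold change was -0.78 ± 0.09, -0.90 ± 0.09, and -0.87 ± 0.08. Klf8, which like Klf3 binds CtBP, was lower at 4 h (-0.38 ± 0.13) and at 8 h (-0.37 ± 0.12) and higher at 24 h (0.30 ± 0.11, adjusted p = 0.0199).

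Sp genes encode the nearest relatives of the KLFs and bind the same GC boxes. Of 9 genes, 4 were tested (Sp1, Sp2, Sp3, and Sp4), with 2 higher and 1 lower at 4 h, 0 higher and 2 lower at 8 h, and 1 higher and 1 lower at 24 h. At these times 0 of the 4 changed 2-fold, and the largest value was that of Sp4 at 24 h (0.30 ± 0.09, adjusted p = 0.00263). Their median log2 fold change lay between -0.16 and 0.06.

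All 10 genes of corepressors and coactivators used by KLFs were tested. At 4, 8, and 24 h, 4, 4, and 7 were higher and 3, 3, and 1 were lower, with a median log2 fold change of -0.00153, 0.02, and 0.17. Kat2b, which encodes the acetyltransferase PCAF, was the gene of this list that changed 2-fold, falling from 34.0 ± 1.6 to 16.3 ± 0.42 CPM at 4 h. Its log2 fold change was -1.05 ± 0.07, -1.27 ± 0.06, and -1.17 ± 0.06 at the 3 time points. Of 5 genes of the ERK5-MEF2 axis, 3, 2, and 1 were higher and 1, 1, and 3 were lower at 4, 8, and 24 h, with a median of 0.33, 0.10, and -0.21. Mef2c was the gene of the axis that changed at least 2-fold, but it stood at 20 counts or fewer in each library, and its log2 difference was -1.63 ± 0.48 at 8 h and -1.74 ± 0.48 at 24 h. Of 4 ubiquitin ligases that act on KLF proteins, 3, 2, and 3 were higher and 0 were lower at 4, 8, and 24 h, with a median of 0.16, 0.23, and 0.25. Smurf1 had the largest change among them, from 144 ± 3.4 to 225 ± 7.0 CPM at 4 h (log2 fold change 0.65 ± 0.04, adjusted p = 2.3e-14).

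Genes known to act with KLFs in adipogenesis, or downstream of them, included Egr2, Cebpa, Cebpb, Cebpd, Pparg, Slc2a4, Adipoq, and Dlk1. Of the 7 tested, 2 were higher and 4 were lower at each time point, and the median log2 fold change was -0.29, -0.30, and -1.53. Egr2, the partner of Klf4, rose from 9.88 ± 2.0 to 143 ± 1.5 CPM at 4 h, a log2 fold change of 3.85 ± 0.07, and was 0.99 ± 0.11 higher at 24 h. Pparg, the target of Klf5 and Klf9 and the master regulator of adipogenesis, fell from 57.6 ± 2.0 to 29.1 ± 1.4 CPM at 4 h. At 24 h the means were 78.5 ± 2.2 CPM with vehicle and 19.0 ± 0.29 CPM with FGF6. Its log2 fold change was -0.98 ± 0.05, -1.35 ± 0.05, and -2.04 ± 0.05, so Pparg was lower where Klf5 was higher in all 3 comparisons. Cebpa was -0.29 ± 0.06, -0.30 ± 0.06, and -2.15 ± 0.07. Cebpb and Cebpd were named after their values were seen. Cebpb averaged 155.5 ± 16.1 CPM with vehicle and 99.2 ± 11.5 CPM with FGF6 at 4 h, and 99.2 ± 18.2 and 94.0 ± 12.7 CPM at 24 h. Cebpd averaged 64.4 ± 2.8 CPM with vehicle and 88.1 ± 10.2 CPM with FGF6 at 4 h, and 86.0 ± 15.5 and 136.6 ± 7.2 CPM at 24 h. Slc2a4, the target of Klf15, was scarce, with 23 counts or fewer in each library, and was lower with FGF6 at each time point. It had 11 to 18 counts with vehicle and 1 to 3 with FGF6 at 4 h, and it was -2.13 ± 0.45 in log2 at 8 h and -1.53 ± 0.37 at 24 h. Adipoq, an adipokine gene, was -1.34 ± 0.44 at 8 h. It had 0 counts in the 3 FGF6 libraries at 24 h and 13 to 23 counts in the vehicle libraries, at least 5.62-fold lower when 3 counts in each library are taken as the floor.

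**Figure D4:**
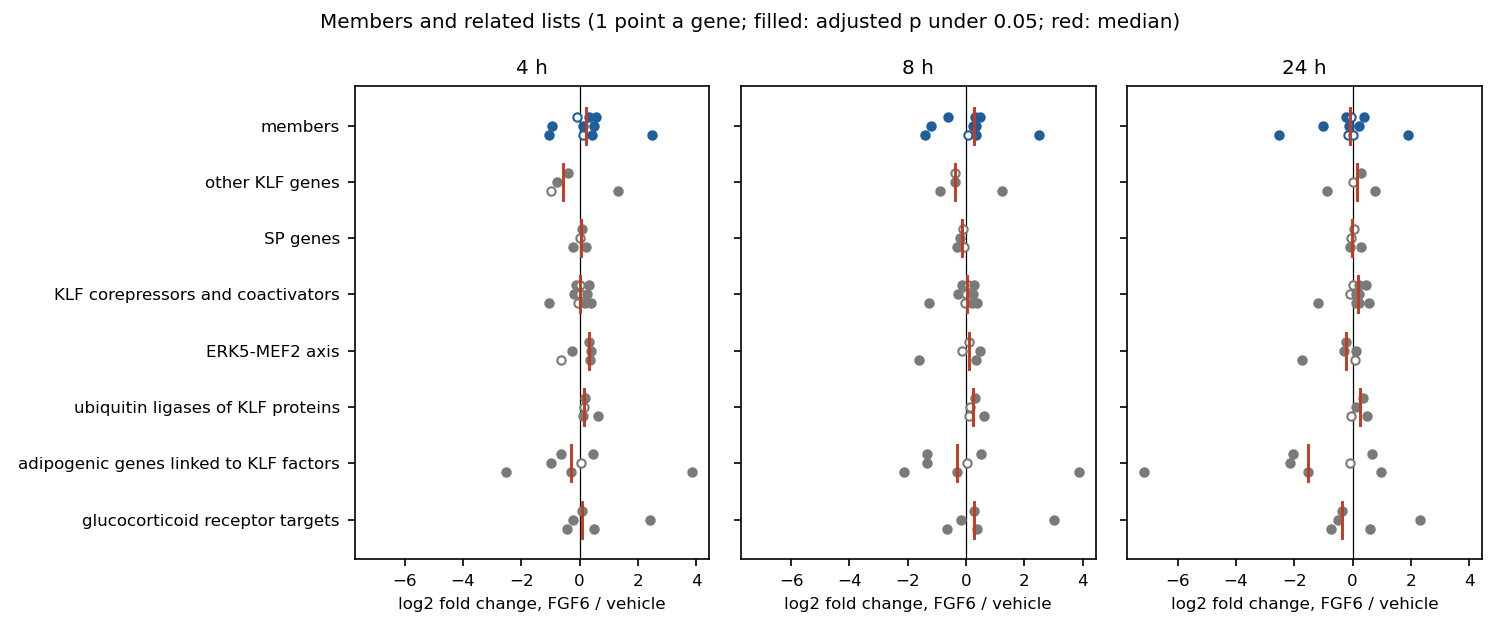
Log2 fold change of FGF6 over vehicle at 4, 8, and 24 h for the members (blue) and for the tested genes of 7 related lists (grey), 1 point a gene, filled for an adjusted p under 0.05 (edgeR), with red bars for list medians. The adipogenic list has the lowest median at 24 h, at -1.53. The point of Adipoq at 24 h is a fitted value against libraries with 0 counts.

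Klf9 and Klf15 are known targets of the glucocorticoid receptor. Of these, Klf9 was called higher than vehicle at 8 h, while Klf15 was lower than vehicle at all 3 times. Of 6 other genes tied to the receptor, 5 were tested, and 3, 3, and 2 were higher and 2, 2, and 3 were lower at 4, 8, and 24 h, with a median of 0.10, 0.26, and -0.36. Sgk1, a kinase gene, was the one that changed 2-fold, from 159 ± 0.76 to 856 ± 16 CPM at 4 h, and its log2 fold change was 2.42 ± 0.04, 3.01 ± 0.04, and 2.31 ± 0.04.

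Markers were read to see which cells the libraries hold. Of 7 preadipocyte or stromal markers, Dlk1 was at 0, and of the 6 tested 0, 1, and 1 were higher and 4, 5, and 5 were lower at 4, 8, and 24 h. Their sum went from a range of 3236 to 3478 CPM with vehicle to 2025 to 2145 CPM at 4 h, and from 4272 to 4595 CPM to 766 to 824 CPM at 24 h. Mature adipocyte markers were mostly Fabp4, with Cidea and Lep at or below 3 counts in every library, and summed to 151 to 174 CPM with vehicle and 63.3 to 69.8 CPM with FGF6 at 24 h. Endothelial markers summed to 0.965 to 1.30 CPM with vehicle and 3.71 to 5.65 CPM with FGF6 at 24 h, with Tek at 0 in those FGF6 libraries and Cdh5 making up most of the rest. The leukocyte markers Ptprc, Adgre1, and Itgam were at or below 3 counts in each library, while Cd68 was present, and the 3 myoblast markers summed to less than 9 CPM. The 3 epithelial markers summed to at most 0.184 CPM. The part of these shifts in the results on KLFs was not tested, and in RNA from whole cultures fewer cells of a type and less RNA per cell cannot be told apart.

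Total counts ranged from 24327816 to 33471980 over the 18 libraries. Each library correlated best with the mean of its own group, but that mean included the library itself, which favors this outcome. A floor of 3 counts corresponded to 0.0905 to 0.126 CPM, well below the lowest member, and covers counting error only. Without TMM factors, scaling by library sizes alone, the median log2 fold change of all genes at 4 h shifted by -0.10, and the split of all genes called at 4 h went from 4308 higher and 5152 lower to 3242 higher and 6495 lower. Under that scaling Klf4 at 4 h was 0.03 and not called. For Klf5, Klf15, Klf3, Klf10, and Klf13, all 9 processing alternatives and all 18 fits that each left out 1 library kept the direction and the call at all 3 time points.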

How the data were processed

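RNA-seq was performed on immortalized murine brown preadipocytes given vehicle or FGF6 for 4, 8, or 24 h, with 3 libraries a group. Groups and replicate numbers came from the labels, and the dose from the text of the study. The authors aligned reads to GRCm38.p4 with STAR, counted them per GENCODE gene with Subread featureCounts, and deposited raw counts without normalization. Versions, strand setting, and the treatment of reads with several matches were not given in the sources used here.

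The 10 genes, the related gene lists, and the markers were chosen with earlier results of these data known. GENCODE M21 (GRCm38) gave symbols, positions, and exonic lengths and matched 98.5% of identifiers, and upstream sequences from RefSeq. From the deposited counts, filterByExpr of edgeR 4.0.16 (R 4.3.3) kept 15071 of 48023 genes. The quasi-likelihood model, with TMM factors from 0.951 to 1.05, was fitted to the 6 group means of all 18 libraries without covariates, with Benjamini-Hochberg adjustment over all genes. The threshold of 0.05 is stricter than the 0.25 used in the study. CPM was computed on TMM-scaled library sizes, and errors of log2 fold changes are standard errors. An exact permutation test of 3 libraries against 3 cannot go below a p of 0.1 and was not used.

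All members were named. Genes of a list were named where they changed at least 2-fold at any time, or else the one with the largest change. The genes most like each member were taken by Pearson correlation of log2 CPM over the 18 libraries. The alternatives were limma 3.58.1 with voom, DESeq2 1.42.0, no scaling factors beyond library size, upper-quartile factors, a filter of at least 10 counts in every library or none, fits to the compared times only, the replicate number as a block, a threshold of 0.25, and fits without 1 library. The scripts were tested on simulated counts. Total counts, from 24327816 to 33471980 a library, set the precision of low genes. Libraries of a group differed by more than sampling noise, with a chi-square per degree of freedom of 2.34 or more.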

Additional observations from a re-analysis of the deposited data

Results flagged for a closer look

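The differences below, between the effects of FGF6 at 2 time points, passed the interaction term of the edgeR model with adjustment over all genes tested. Such calls were common, with 15.5% of all genes moved up and 15.1% down from 4 to 8 h, 22.6% and 22.5% from 8 to 24 h, and 28.3% and 25.2% from 4 to 24 h. Values are differences of log2 fold changes, and the contrasts share libraries. From 4 to 8 h, the difference was -0.243 for Klf3 (adjusted p = 0.00283), -0.265 for Klf6 (adjusted p = 0.00314), -0.537 for Klf7 (adjusted p = 4.58e-05), 0.221 for Klf9 (adjusted p = 0.0137), and -0.229 for Klf10 (adjusted p = 0.00327). From 8 to 24 h, it was -0.639 for Klf2 (adjusted p = 9.02e-05), 0.172 for Klf3 (adjusted p = 0.0232), -0.604 for Klf5 (adjusted p = 0.00426), and -0.217 for Klf6 (adjusted p = 0.00929). In the same contrast, it was 0.416 for Klf7 (adjusted p = 0.000623), -0.391 for Klf9 (adjusted p = 5.4e-05), and -1.12 for Klf15 (adjusted p = 2.07e-05).

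From 4 to 24 h, the difference was -0.49 for Klf2 (adjusted p = 0.000912), -0.261 for Klf4 (adjusted p = 0.00715), -0.584 for Klf5 (adjusted p = 0.00398), and -0.482 for Klf6 (adjusted p = 8.5e-07). It was also negative for Klf9 at -0.17 (adjusted p = 0.0387), Klf10 at -0.176 (adjusted p = 0.0125), Klf13 at -0.209 (adjusted p = 0.0358), and Klf15 at -1.48 (adjusted p = 1.97e-07). The values of Klf9, Klf10, and Klf13 in this contrast missed the threshold with library sizes alone and with upper-quartile factors, and that of Klf4 with library sizes alone. Klf9 missed it as well without a filter on low counts (adjusted p = 0.0506, edgeR), and Klf13 with only the libraries of the times compared (adjusted p = 0.05, edgeR). The single value of Klf13 listed here was thus lost in 3 of 9 processing alternatives and in 10 of 18 fits without 1 library. Klf10 also missed it without FGF6 replicate 3 at 4 h, vehicle replicate 3 at 24 h, or FGF6 replicate 1 or 3 at 24 h. Klf9 missed it without vehicle replicate 1 or 3 or any FGF6 replicate at 4 h, FGF6 replicate 3 at 8 h, or, at 24 h, vehicle replicate 1 or 3 or any FGF6 replicate. Klf13 missed it without vehicle replicate 2 or 3 or FGF6 replicate 1 or 2 at 4 h, FGF6 replicate 3 at 8 h, or, at 24 h, vehicle replicate 1 or 2 or any FGF6 replicate. The shift of Klf3 from 8 to 24 h missed it without vehicle replicate 3 or FGF6 replicate 3 at 8 h, or vehicle replicate 2 or FGF6 replicate 3 at 24 h, and that of Klf9 from 4 to 8 h without FGF6 replicate 1 at 8 h. With 3 libraries a group, single libraries were not tested as outliers.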

How the results depend on the processing

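Of the member counts, those of FGF6 against vehicle stayed within 1.5 times under the 9 processing alternatives, and leaving out 1 library gave 1 to 2 members changed at least 2-fold at 4 h and 2 to 4 lower members at 24 h. For differences between times, leaving out 1 library gave 0 to 1 higher members from 4 to 8 h, 1 to 2 higher from 8 to 24 h, and 5 to 8 lower from 4 to 24 h, and for vehicle 1 to 2 lower from 8 to 24 h. With at least 10 counts in every library, 1 member was higher from 8 to 24 h. The 8 lower members from 4 to 24 h became 4 with library sizes alone and 5 with upper-quartile factors. At an adjusted p under 0.25, 7397 genes in place of 4615 were called from 4 to 8 h, and 1 and 2 members were higher in vehicle from 4 to 8 h and from 4 to 24 h. DESeq2 called 1 member lower in vehicle from 8 to 24 h. With library sizes alone, 4 values changed sign, none past the threshold: Klf9 at 4 h (-0.000421), Klf4 at 8 h (-0.00927), Klf3 from 4 to 24 h (0.0235), and Klf9 in vehicle from 8 to 24 h (-0.0382). Leaving out 1 library, values near 0 changed sign within -0.00901 to 0.111 for Klf4 at 8 h and -0.0947 to 0.107 for Klf5 from 4 to 8 h, and in vehicle within -0.0691 to 0.0151 for Klf3, -0.138 to 0.0525 for Klf5, and -0.07 to 0.025 for Klf15 from 8 to 24 h, and -0.0737 to 0.0481 for Klf13 from 4 to 24 h. Beyond the construction of each alternative, the cause was not tested.

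The replicate numbers did not pair the libraries. To see this, the group mean of log2 CPM was subtracted from each gene, and the deviations left were correlated between vehicle and FGF6 libraries. Deviations of same-numbered libraries correlated at -0.0275 to 0.0486 over 9 pairs. By these deviations, 4 of 9 vehicle libraries correlated best with their own number. With the replicate block, 1 member was lower in vehicle from 8 to 24 h in place of 2 (Klf10, adjusted p = 0.0502, edgeR), and no other member call changed. Depth limits Klf5 with vehicle, Klf15 with FGF6, Slc2a4, Mef2c, and Adipoq, which rest on few counts.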

Other observations

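For each member, the 2 other genes with the highest Pearson correlation of log2 CPM over the 18 libraries were listed, out of 12265 genes with a mean of at least 1 CPM. The 18 libraries share 6 groups, so these values mostly follow the group means and are given as a description. Klf5 was most like St3gal4, a sialyltransferase gene (r = 0.991), and Hbegf, a ligand of the EGF receptor (r = 0.99), whose log2 fold changes with FGF6 at 4, 8, and 24 h were 1.24, 1.31, and 1.01 and 3.41, 4.09, and 3.29. Klf15 was most like Parp3 (r = 0.988) and Ptx3, a pentraxin gene (r = 0.988), and Ptx3 was -2.47, -3.77, and -5.40. Klf3 was most like Slc25a51, a mitochondrial carrier gene (r = 0.984), and Enah, an actin regulator (r = 0.983).

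Klf9 was most like Ccn1 (r = 0.982) and Slc3a2 (r = 0.974), Klf10 most like Ndst1 (r = 0.981) and Nedd4l (r = 0.98), and Klf2 most like Mylk2 (r = 0.974) and Ptprs (r = 0.971). The lipid droplet gene Plin2 was listed for both Klf13 (r = 0.954) and Klf6 (r = 0.93), and its log2 fold change was 0.99, 0.63, and 0.43. The other gene was Lonrf1 for Klf13 (r = 0.927) and Rabep1 for Klf6 (r = 0.945). Klf7 was most like Ifnar1 (r = 0.95) and Mdfic (r = 0.949), and Klf4 was most like Tbcc (r = 0.937) and Wdr81 (r = 0.934).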
